A study of Mus musculus and synthetic RNA with 74 samples.

Results

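The genes described here encode the subunits of the proteasome, together with its activators, its inhibitor and its assembly factors. They were taken by name from the gene tables of mouse embryos, as all symbols that begin with Psma to Psmg and a number and are not marked as pseudogenes. This gave 50 genes at both stages, out of 20330 genes listed at E2.5 and 21199 listed at E3.5. One of them, Psmc3ip, carries such a name but encodes a partner of the meiotic recombinases and no part of the proteasome, and it was counted by the rule. The rule leaves out the 19S subunits Adrm1 and Sem1, whose names differ, so that the 19S particle below stands for its 17 subunit genes named Psmc or Psmd. The name rule also took Psme2b, a single-exon gene whose sequence resembles Psme2.

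The embryos came from crosses of mice heterozygous for a Mettl16 allele, in which a triple-stop codon cassette was inserted into exon 3 (line #2112, founded in B6D2F1/J embryos and crossed to C57BL/6JRj). METTL16 is an RNA methyltransferase that places m6A on structured RNAs with a fixed nonamer. Each embryo was genotyped by the authors from its own sequencing reads. At E2.5, the morula stage, 31 single embryos were sequenced, 5 WT, 14 HET and 12 KO. At E3.5, the blastocyst stage, there were 39, namely 18 WT, 9 HET and 12 KO. The values used here are the authors' mean normalized count of each gene over all embryos of a stage, without an SD and without a value for a single embryo, so no difference below has a test or an error, and genotypes were not compared. WT embryos made up 16.1% of the E2.5 mean and 46.2% of the E3.5 mean, so a difference between stages cannot be told apart from this difference in genotype mix. The counts were normalized within each stage, so they give no amount of RNA per embryo or per cell. Whole embryos were sequenced, so the cell types of an embryo are not separated.

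The proteasome is the protease that degrades most ubiquitin-tagged proteins of the cell. Its 20S core is a barrel of stacked rings, of alpha subunits at both ends and beta subunits in the middle, and the subunits encoded by Psmb5, Psmb6 and Psmb7 carry the protease activity. In immune cells and after interferon these are exchanged for those of Psmb8, Psmb9 and Psmb10, which gives the immunoproteasome. The 19S particle caps the barrel. It binds ubiquitin chains, removes them, and unfolds the substrate with a ring of ATPases. Other caps, such as PA28 and PA200, open the barrel without ATPases. Proteasomes take part in the removal of maternal proteins in early embryos.

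Summed over all genes, the means came to 23557112 normalized counts at E2.5 and 27145016 at E3.5. Over the 11774 genes with a mean of at least 10 at both stages, the E3.5 level was higher by a median of 0.55 on the log2 scale. Each stage was normalized by itself, so stage differences are given below relative to this median gene. The stage labels were checked against lineage markers. Krt8, a keratin of the trophectoderm, went from a mean of 651 to 30837, and Zp3, an oocyte gene, from 1587 to 104. Pluripotency and primitive endoderm markers were mixed. Of the former, Nanog and Sox2 had log2 ratios of 2.37 and 3.05 relative to the median gene, and Pou5f1 had -1.90. Of the latter, Pdgfra had 3.51, Sox17 0.73 and Gata6 -0.51. Of 5 genes of other cells, Amh, Hbb-bs and Ptprc were below 2 at both stages. Ovgp1, a gene of the oviduct lining, had a mean of 320 at E2.5 and 25.3 at E3.5, and Hba-a1 had 49.6 and 12.0. The part of such RNA in the levels of proteasome genes was not tested. Mettl16 itself, pooled over genotypes, had means of 778 and 669.

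Sequences of 2 kinds carry the results on single members and are shown here with mm10 positions, read from the GRCm38 reference. The nonamer of the in vitro methylation experiment, UACAGAGAA, was searched on the transcribed strand of each member, since the study asked which RNAs METTL16 can methylate. It occurred in the spliced transcripts of 2 of the 50 members (4.00%), beside 4.29% of 11570 genes of a mean of 10 or more at both stages. Both matches lie in coding exons, exon 4 of Psmb6 at chr11:70526611-70526619 and exon 13 of Psmc2 at chr5:21803614-21803622, both on the plus strand. The nonamer is in capitals, with 10 bases on each side.

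Psmb6 exon 4: gtgttaccggTACAGAGAAgatctgatgg
Psmc2 exon 13: gaaaaattgcTACAGAGAAggacttctta

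In introns the nonamer occurred in 19 members (38.0%), with 30 matches in all, and in 43.5% of the genes searched. The share of members with a match was thus near the share of all genes in both parts of the transcript. A match says only that these letters are present, and methylation of these RNAs was not analysed here.

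The second kind are the introns of members with reads over more than 10% of the exon level at both stages, which are described with the introns below. The splice-site dinucleotides at both ends are in capitals. Psmb10 introns 4 and 5 lie on the minus strand at chr8:105936982-105937240 and chr8:105936755-105936865, and Psmd11 intron 13 lies on the plus strand at chr11:80471595-80471709.

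Psmb10 intron 4: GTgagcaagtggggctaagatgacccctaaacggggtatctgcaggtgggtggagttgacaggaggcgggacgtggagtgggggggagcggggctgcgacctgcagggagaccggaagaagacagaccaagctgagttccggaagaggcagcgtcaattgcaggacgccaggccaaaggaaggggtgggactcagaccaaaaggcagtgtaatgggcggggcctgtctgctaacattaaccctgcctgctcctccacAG
Psmb10 intron 5: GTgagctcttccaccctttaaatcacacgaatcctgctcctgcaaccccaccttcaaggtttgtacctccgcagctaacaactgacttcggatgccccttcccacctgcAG
Psmd11 intron 13: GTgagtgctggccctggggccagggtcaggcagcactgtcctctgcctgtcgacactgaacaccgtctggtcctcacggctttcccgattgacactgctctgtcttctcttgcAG

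Genes of the constitutive proteasome were among the most abundant of both stages. Of the 50 members, 31 were in the top 10% of genes at E2.5 (background 9.99% of 12638 genes with a mean of at least 10) and 32 at E3.5 (background 10% of 13291). At E2.5 these were the 14 constitutive 20S genes and the 17 Psmc and Psmd genes of the 19S particle. Of the 19S subunits outside the rule, Adrm1 was at the 98.3rd percentile at E2.5 and Sem1 at the 89.9th. At E3.5 they were the same genes but for Psmd13, which lay at the 88.7th percentile, with Psmd5 and Psmg1 in addition. In both stages 44 of the 50 members lay above the median gene. Together the 50 genes took 1.24% of all normalized counts at E2.5 and 1.87% at E3.5. Of this, the 20S core accounted for 0.536% and 1.04%, and the 19S particle for 0.641% and 0.721%. Cytosolic ribosomal protein genes, another group of abundant genes, had a median percentile of 99.0 at E2.5 and 99.5 at E3.5 (77 genes), the 20S core 96.2 and 98.5. These differences were not tested.

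**Figure D1:**
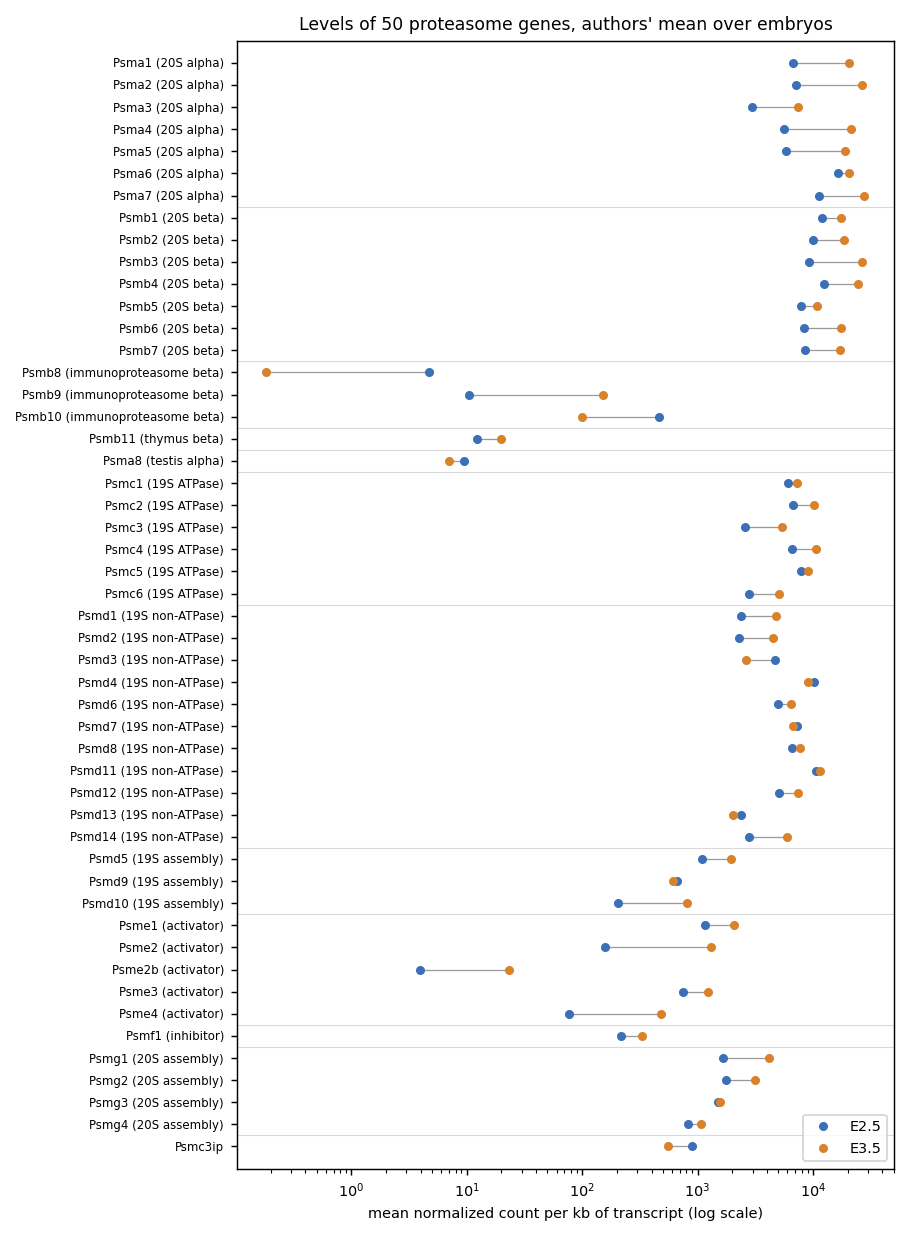
Mean normalized count per kb of transcript (horizontal, log scale) of the 50 genes at E2.5 (blue) and E3.5 (orange), grouped by role, each point being the authors' mean over 31 or 39 embryos with no error available. The constitutive 20S and 19S genes lie between 2046 and 28016 per kb, and Psmb8 to Psmb11 and Psma8 at most at 464.

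The alpha ring genes of the 20S core had levels of 2963 to 16485 normalized counts per kb of transcript at E2.5 and of 7465 to 28016 at E3.5. The level per kb is the mean normalized count divided by the length of a RefSeq transcript of the gene. Psma7 was highest at E3.5, with 11399 per kb at E2.5 and 28016 at E3.5. Psma2 went from 7149 to 26453 per kb, Psma4 from 5661 to 21541, Psma1 from 6724 to 20477 and Psma5 from 5869 to 18873. Psma6 was highest of all 20S genes at E2.5, with 16485 per kb, and had 20667 at E3.5. Psma3 was lowest of the ring at both stages by this measure, with 2963 and 7465 per kb. Its listed transcript is 2374 bases long, against 946 to 1255 for the others. The last exon makes up 1527 of these bases and had 266 counts per kb at E2.5 and 340 at E3.5. No other exon of Psma3 was below 9724 at E2.5 or 5332 at E3.5. Division by the full length thus lowers its level per kb, and its rank in the ring is uncertain.

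The beta ring genes lay closer together than the alpha genes at E2.5. At that stage the beta genes ranged from 7893 per kb for Psmb5 to 12516 for Psmb4, a ratio of 1.59 between the highest and the lowest gene. At E3.5 they ranged from 10814 for Psmb5 to 26840 for Psmb3, a ratio of 2.48. They lay closer than the alpha genes at E3.5 only with Psma3 counted, since the other alpha genes ranged from 18873 to 28016 per kb. Of the genes for the proteolytic subunits, Psmb5, for the chymotrypsin-like site, had means of 6874 and 9419 normalized counts, Psmb6, for the caspase-like site, 8714 and 18245, and Psmb7, for the trypsin-like site, 8289 and 16566. Psmb5 was thus the lowest of these at both stages. Psmb1, Psmb2 and Psmb4, which encode structural beta subunits, had E2.5 levels of 11938, 10067 and 12516 per kb and E3.5 levels of 17547, 18544 and 24762. Over the 14 genes of the core, the SD of the log2 level per kb was 0.61 at E2.5 and 0.52 at E3.5. Over all genes with a mean of at least 10 it was 3.01 and 2.94. The core genes all lay at or above the 94.7th percentile at E2.5 and the 96.4th at E3.5. The spread among genes of matched level was not tested.

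The 6 ATPase genes of the 19S particle ranged from 2574 to 7860 per kb at E2.5 and from 5074 to 10683 at E3.5. Psmc5 was highest at E2.5, with 7860 per kb, and Psmc4 at E3.5, with 10683. Psmc2 had 6693 and 10238 per kb, and Psmc1 had 6080 and 7345. Exon 1 makes up 235 of the 1782 bases of the listed Psmc2 transcript and had 12.7 and 9.51 counts per kb. No other exon of Psmc2 was below 7008 at E2.5 or 4482 at E3.5. Division by the full length thus lowers the level of Psmc2, and its rank beside Psmc4 at E3.5 is uncertain. Psmc3 and Psmc6 were the lowest ATPases at both stages, Psmc3 with 2574 and 5347 per kb and Psmc6 with 2771 and 5074. The ATPases form a single ring with 1 copy of each subunit, and the highest of these genes was 3.05 times the lowest at E2.5 and 2.11 times at E3.5.

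Of the 11 genes for the other 19S subunits, Psmd11, Psmd4 and Psmd8 were highest at E3.5, with 11475, 9127 and 7711 per kb. Psmd11 encodes a scaffold subunit of the lid and Psmd4 a ubiquitin receptor. The lowest were Psmd13, with 2046 per kb, Psmd3, with 2635, and Psmd2, with 4487. Psmd2 encodes one of the large scaffold subunits of the base, and Psmd3 and Psmd13 encode lid subunits. Psmd14, which encodes the deubiquitinase of the lid, had 2787 per kb at E2.5 and 5910 at E3.5. Over the 17 genes of the 19S particle, the SD of the log2 level per kb was 0.77 and 0.68, larger than in the 20S core at both stages. With exon counts per kb the SDs were nearly equal, 0.73 and 0.71 for the 19S genes and 0.71 and 0.70 for the core. The median level per kb of the 20S genes was 1.68 times that of the 19S genes at E2.5 and 2.91 times at E3.5. At E3.5, 12 of the 14 genes of the core lay above the highest of the 17, and at E2.5 this held for 4. Adrm1, not among the 17, had 13183 per kb at E2.5, below Psma6 alone of the core, and 4089 at E3.5. Without division by transcript length, the ratio of the medians was 0.92 at E2.5 and 1.72 at E3.5, since 19S transcripts are longer.

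Between the stages, the 20S and the 19S genes differed in how their levels moved. Relative to the median gene, the 14 genes of the core had a median log2 ratio of E3.5 over E2.5 of 0.63, with 12 above 0, and the 17 genes of the 19S particle had a median of -0.17, with 8 above 0, which turns to 0.38 if the means are taken as deposited. The difference of these medians, 0.80, does not depend on how the stages were scaled, and it was 0.72 when the counts of single exons were summed. It was not tested, for lack of values per embryo. Over all 11774 genes the log2 ratios had an SD of 1.59 and quartiles of -0.89 and 0.92, so both medians lie in the middle of the genes at large. Of the core genes, 7 had a log2 ratio above the highest of the 17 19S genes, and 8 of the 17 had one below the lowest 20S gene. Of the 19S subunit genes outside the 17, Sem1 had 1.11, which only Psma2, Psma4 and Psma5 of the core exceeded, and Adrm1 had -2.24.

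Counting differences past 2-fold relative to the median gene, 7 of the 47 members with a mean of at least 10 at both stages were higher at E3.5 (14.9%, background 23.4%) and 3 were lower (6.38%, background 22.7%). With the means as deposited, 15 were higher and 1 lower, beside 36.5% and 13.6% of all genes. Of the 47 genes, 37 thus stayed within 2-fold of the median gene. Both shares were below those of all genes. With a mean of at least 100 at both stages, 17.8% of 45 members were higher and 6.67% lower, beside 19.8% and 19.7% of all genes with this filter. Members have high levels, and the shares among genes of matched level were not tested. The 3 lower were Psmb10, Psmd3 and Psmc3ip, the last of which, with a log2 ratio of -1.24, is no proteasome gene. The 3 members not counted, Psmb8, Psmb9 and Psme2b, had a mean below 10 at E2.5.

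The alpha genes held the larger differences. Their median log2 ratio was 1.06, and Psma4 (1.38), Psma2 (1.34), Psma5 (1.14) and Psma1 (1.06) were past 2-fold. Psma3 had 0.79 and Psma7 0.75, while Psma6 had -0.22. The beta genes had a median of 0.44, and none of the 7 was past 2-fold. Psmb3 came nearest, just under the limit, followed by Psmb6 with 0.52, Psmb7 with 0.45, Psmb4 with 0.44 and Psmb2 with 0.33. Psmb1, with 0.01, and Psmb5, with -0.09, stayed at the median gene. Without the centring on the median gene each log2 ratio is higher by 0.55, so that all 14 genes of the core, and 13 of the 17 genes of the 19S particle, had a higher mean at E3.5. On that scale the median gene was also higher, by 0.55. The share of all genes with a higher mean was not counted, so these counts are no trait of the members.

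Of the ATPases, Psmc3 had 0.51, Psmc6 0.32, Psmc4 0.14, Psmc2 0.07, Psmc1 -0.28 and Psmc5 -0.33. The genes lowest per kb at E2.5, Psmc3 and Psmc6, also had the highest ratios. The E2.5 level is the divisor of the ratio, so the one is not independent of the other. Among the 11 Psmd subunit genes the ratios ran from -1.38 to 0.54. Psmd3 was the single one of them past 2-fold, with a mean of 10079 at E2.5 and 5658 at E3.5. Psmd13 had -0.76, Psmd4 -0.72 and Psmd7 -0.66. Psmd14, Psmd1 and Psmd2 had the highest ratios, 0.54, 0.46 and 0.41.

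**Figure D2:**
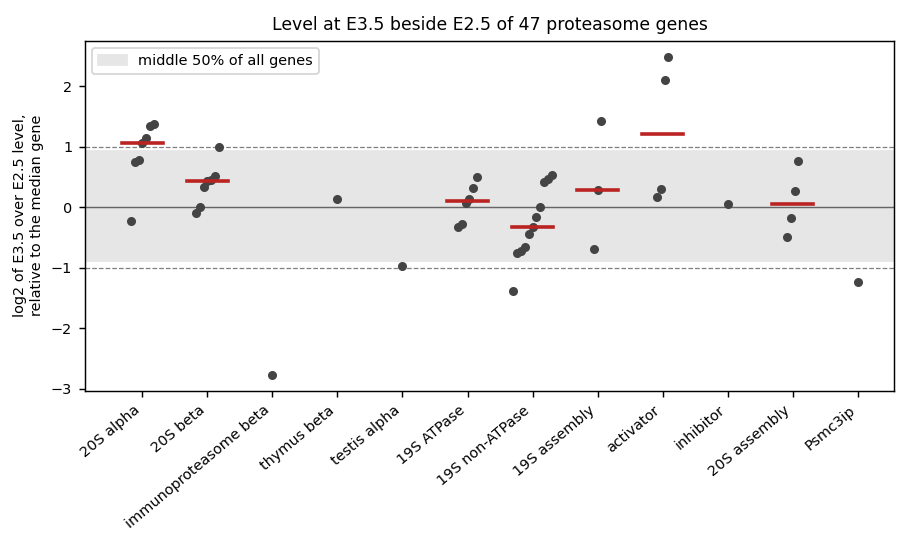
Log2 ratio of the E3.5 over the E2.5 mean relative to the median of 11774 genes (vertical) for the 47 counted genes by role, where points are genes, red lines are medians of roles with more than 2 genes, the grey band holds the middle 50% of all genes, and dashed lines mark 2-fold. Alpha genes have a median of 1.06 and beta genes of 0.44, ATPases of 0.10 and other 19S genes of -0.33, and without the centring each value is higher by 0.55.

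The coverage along transcripts also differed between the stages. With the exons of a transcript divided into an earlier and a later set of about equal number, the level per kb of the earlier exons was 132% of that of the later exons in the median of 7891 genes at E2.5 and 66.9% in the median of 8311 genes at E3.5. For members the medians were 104% (42 genes) and 65.3% (43 genes). The part of this in the stage ratios was not tested. With summed exon counts, 8 members (17.02%) were higher and 3 (6.38%) lower past 2-fold, beside 25.5% and 23.9% of all genes.

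The assembly factors named Psmg and Psmd had levels of 205 to 4147 per kb. Psmg1 and Psmg2, which act as a pair on the alpha ring, had E2.5 levels of 1675 and 1774 per kb and E3.5 levels of 4147 and 3125, so their ratio was 0.94 and 1.33. Psmg3 and Psmg4, which form the other pair, had E2.5 levels of 1501 and 831 per kb and E3.5 levels of 1564 and 1080, a ratio of 1.81 and 1.45. Pomp, which drives the maturation of the beta ring, was at 8287 and 19050 per kb, at the level of the core subunits. Of the chaperones of the 19S base, Psmd5 had 1088 and 1944 per kb, Psmd9 670 and 608, and Psmd10, also known as gankyrin, 205 and 809. Psmd10 was past 2-fold relative to the median gene, with a log2 ratio of 1.43.

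Among the activators, the genes of PA28 moved unequally. Psme1 and Psme2 encode the alpha and beta subunits, which form a mixed ring. Psme1 had a mean of 1129 at E2.5 and 2041 at E3.5, Psme2 of 143 and 1171. Per kb, Psme1 was thus 7.25 times Psme2 at E2.5 and 1.60 times at E3.5. The log2 ratio of Psme2 relative to the median gene was 2.49, the highest of the 47 members, and that of Psme1 was 0.31. Both genes lie on chromosome 14 of mm10, Psme1 at chr14:55578494-55581527 and Psme2 at chr14:55587440-55591021. Psme2b, on chromosome 11, had means of 4.21 and 24.6, and as reads of 80 bases may match both, its level and a small part of that of Psme2 are uncertain. Exon 11 of Psme1 overlaps an exon of Emc9, and reads without strand cannot be assigned to either.

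Psme3, for the nuclear PA28 gamma, had a mean of 1957 and 3219, a log2 ratio of 0.17. Psme4, which encodes PA200, a cap linked to the breakdown of acetylated histones, had a mean of 491 and 3079. Its log2 ratio was 2.10, and with summed exon counts Psme4 also was past 2-fold. Psmf1, the inhibitor PI31, had 217 and 329 per kb and a ratio of 0.05. Of the activators, Psme2 and Psme4 thus had the highest ratios.

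The tissue-specific subunits were below the median of genes with a mean of at least 10, Psma8 at the 6.65th and 2.07th percentile at E2.5 and E3.5 and Psmb11 at the 25.01st and 26.4th. Psma8, the alpha subunit of the testis, had means of 15.9 and 11.9, or 0.0824% and 0.0251% of the level of Psma7 per kb. Psmb11, the beta subunit of the thymus, had means of 51.8 and 83.5 in the Salmon estimates, while its single exon, at chr14:54625310-54629556, had 9.34 and 0.793 in the exon counts. The 2 methods differed in direction between the stages, so the level of Psmb11 is uncertain.

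The immunoproteasome genes had lower levels than their constitutive counterparts at both stages. Only Psmb10 at E2.5, at the 65.3rd percentile, lay above the median gene. Psmb8, which replaces Psmb5, had means of 5.79 and 0.225, and no fold is given for it. Psmb9, which replaces Psmb6, went from 8.49 to 123, or from 0.125% to 0.866% of Psmb6 per kb. Psmb8 and Psmb9 are neighbours in the major histocompatibility region, at chr17:34198195-34201454 and chr17:34182099-34187330. Psmb10, which replaces Psmb7, went from 589 to 127, a log2 ratio of -2.76 relative to the median gene, the lowest of the 47 members. Its level per kb was 5.42% of that of Psmb7 at E2.5 and 0.584% at E3.5. With a mean over embryos alone, a level of this size cannot be told from a higher one in a few embryos.

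The reads of Psmb10 covered its 3′ part and hardly its 5′ part. The gene lies on the minus strand at chr8:105935728-105938392 and has 8 exons. At E2.5, exons 1 to 4 had means of 7.37, 5.80, 6.98 and 10.4, and exons 5 to 8 had 256, 263, 426 and 306. At E3.5 exons 1 to 4 had means of 0.399, 0.135, 0.235 and 0.502, and exons 5 to 8 had 32.9, 41.2, 67.2 and 53.3. Exons 1 to 4 make up 60.2% of the length of the transcript and held 2.38% of the exon counts at E2.5 and 0.649% at E3.5. Per kb, exons 1 to 4 were at 1.61% of exons 5 to 8 at E2.5, and 0.431% at E3.5. At most as high a value was found in 68 of 7891 genes at E2.5 and 51 of 8311 at E3.5, Psmb10 included. The other members had 35.2% or more at E2.5 and 14.99% or more at E3.5. This comparison was chosen after the values were seen.

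The step lies at intron 4, whose level was between those of exons 4 and 5. Intron 4, shown above, had 18.03% of the exon level of the gene at E2.5 and 19.7% at E3.5. Intron 5 had 151% and 132%, with means of 169 and 22.5. The exon level of the gene includes exons 1 to 4. Against exons 5 to 8 alone, intron 4 had 7.34% and 7.89%, under the limit of 10%, and intron 5 had 61.6% and 52.7%. In GENCODE vM21, 7 transcripts of Psmb10 are annotated, and 3 of them begin within intron 4, between positions 105937025 and 105937038 of chromosome 8. Of the 7, 2 have an exon that holds the whole of intron 5. A single one is annotated as protein coding, and it has all 8 exons. Over exons 1 to 4 alone, the level of Psmb10 per kb was 0.193% of that of exons 1 to 4 of Psmb7 at E2.5 and 0.00973% at E3.5. Reads across splice junctions were not analysed here.

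**Figure D3:**
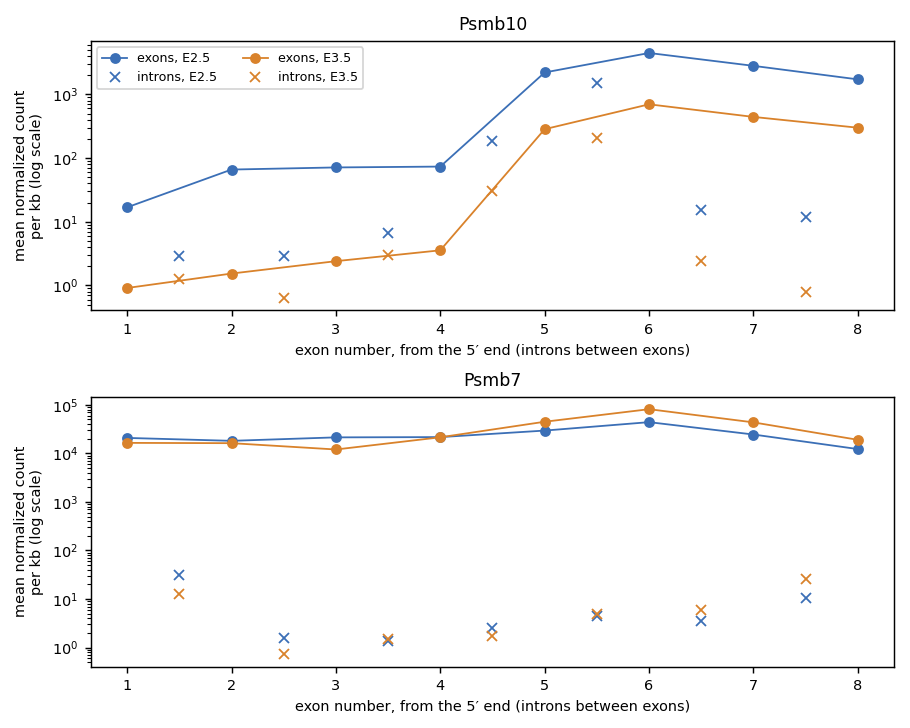
Mean normalized count per kb (vertical, log scale) of each exon (points joined by lines) and intron (crosses) of Psmb10 and of its constitutive counterpart Psmb7 in transcript order, at E2.5 (blue) and E3.5 (orange), from the authors' exon and intron counts. In Psmb10 the level goes from 73.4 in exon 4 to 2207 in exon 5 at E2.5, and in Psmb7 from 21645 to 29493.

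Introns of the other members had few reads. An intron's level per kb was divided by the level per kb of all exons of the transcript, for genes with an exon sum of at least 100. Over all such genes, 3.15% of 95966 introns were past 10% at E2.5 and 6.07% of 100333 at E3.5. Of members, 4 of 414 introns (0.966%) were past 10% at E2.5 and 4 of 419 (0.955%) at E3.5. The median intron of a member had 0.0825% and 0.115% of the exon level, that of all genes 0.451% and 0.869%. Both values were thus lower in proteasome genes at both stages. Members have high exon levels, and the share of all introns at matched exon levels was not tested.

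The introns past 10% came from few genes. Introns 4 and 5 of Psmb10 and intron 13 of Psmd11 were past it at both stages, intron 4 of Psmb10 only because the exon level takes in the sparsely covered exons 1 to 4. Intron 13 of Psmd11 had means of 736 and 627 normalized counts, 22.5% and 26.5% of the exon level, while the median intron of Psmd11 had 0.0373% and 0.0487%. It is 115 bases long and lies before the last exon, and 2 annotated transcripts of Psmd11 have an exon over all of it. The intron past 10% at E2.5 alone was intron 1 of Psmc3ip, with 30.0% and 8.18%, and at E3.5 alone intron 3 of Psmb9, with 12.0%. Intron 3 of Psmb9 had 9.28% at E2.5, where the exon sum of this gene was below the limit of 100. The next highest was intron 5 of Psmf1, with 1.60% and 9.25%. The 73 introns of members of at most 150 bases had a median of 0.243% at E2.5 and 0.292% at E3.5, above the medians of all introns of members. Of the 73, 69 were under 5% at E3.5, and of all 419 introns of members 8 were past 5%. The 73 were filtered on the exon sum at E3.5 alone, also for the E2.5 median. Short introns of all genes were not counted, so the share is not set beside a background.

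**Figure D4:**
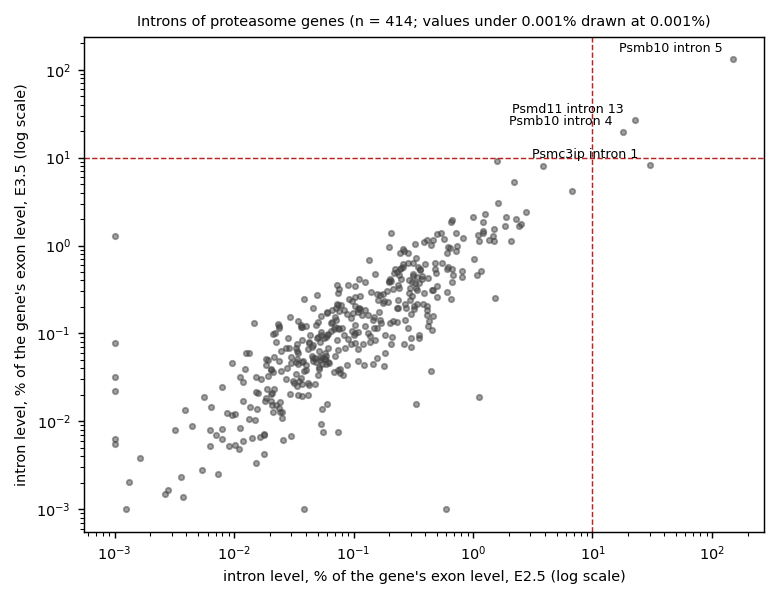
Level of each intron as a percentage of the exon level of its gene at E2.5 (horizontal) and E3.5 (vertical), both on log scales, for 414 introns of members with exon sums of at least 100 at both stages, with dashed lines at 10%. Introns 4 and 5 of Psmb10 and intron 13 of Psmd11 lie above 10% at both stages, and intron 1 of Psmc3ip at E2.5 alone.

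Of 22 genes that act with the proteasome, 21 were listed, and 3 were higher (14.3%, background 23.4%) and 2 lower (9.52%, background 22.7%) past 2-fold at E3.5 relative to the median gene. Those higher were Nfe2l2, which encodes the stress factor NRF2, with means of 116 and 1422 and a log2 ratio of 3.06, the shuttle factor gene Ubqln4 with 2.30, and Sem1, the gene of the smallest 19S subunit, with 1.11. Those lower were Adrm1, which encodes a ubiquitin receptor of the 19S particle, with means of 18838 and 5844 and a ratio of -2.24, and Ddi2, the protease that activates NRF1, with -1.55. Nfe2l1, the gene of NRF1, which induces proteasome genes when proteasomes are short, had 0.16. Ubb, which encodes ubiquitin, had 0.45. In promoters from RefSeq on GRCm38, from 250 bases before to 50 after a start, the letters TGACNNNGC, part of the element bound by NRF1 and NRF2, were searched on both strands. They occurred in 6 of 45 windows of 42 members (13.3%) and in 12.4% of all 32851 windows. The 6 windows belong to Psmb5, Psmb6, Psmc6, Psmd12, Psmd9 and Psme4.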

How the data were processed

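Polyadenylated RNA of 70 single embryos was amplified with Smart-seq2, without strand information, and sequenced with paired reads of at most 80 bases. Per the submitters' processing notes and the methods of the study, the authors aligned reads to RefSeq transcripts of mm10 with Salmon 0.7.2, summed them to genes with tximport, and counted each exon and intron separately with featureCounts. The deposited signal of each gene, exon or intron is the mean, over all embryos of a stage, of counts normalized with DESeq2 1.18.1. The tables also hold the authors' own fold changes and adjusted p-values between genotypes, which were not used, and no value per embryo was used, so the planned genotype test was not run. The depth of single embryos is not given here and the precision of the means is unknown. The table of the in vitro experiment was not used here.

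Level per kb divides the mean by the length of the RefSeq transcript with the lowest accession number. Percentiles and stage ratios used genes whose mean reached 10, the latter relative to the median gene, and differences past 2-fold were counted. Roles followed the known composition of the complex. All 20S subunits, ATPases, immunoproteasome and tissue-specific subunits, regulators and assembly factors were named, as were the 3 highest and 3 lowest other 19S genes, the 5 largest rises and falls between stages and the 5 members with the highest intron share. Other genes named, among them those of the next-highest ratios, were chosen after their values were seen. A gene of the list of genes that act with the proteasome is not reported here. Members and lists were chosen with earlier results of these data known. Scripts used Python 3.11.15, numpy 2.4.6 and pandas 2.3.3 and were tested on simulated data. Alternatives were exon counts, other scalings, filters and lengths, and other limits for introns.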

Additional observations from a re-analysis of the deposited data

How the results depend on the processing

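No paired analysis was possible because the values used are means over all embryos of a stage and come from no test. For the same reason no replicate was left out, and the planned genotype fits and their alternatives were not run. A value counted as moved when it changed by more than 1.5 times or changed sign. For log2 ratios this refers to the fold, so the shift of 0.55 without the centring, 1.46 times, did not count by itself. Without division by length, the 20S over 19S ratio of median levels was 0.922 at E2.5 and 1.72 at E3.5. With the means as deposited, the median log2 ratio of the 19S genes was 0.38, and relative to the sum over all genes it was 0.17. These scalings put 15 and 11 members higher past 2-fold, and 1 and 2 lower, where 36.5% and 31.3% of all genes were higher and 13.6% and 16.6% lower. With a limit of 5%, 8 introns of members passed at E3.5, and with 20% there were 2. No other summary value moved, under exon counts, a pseudocount of 1, a mean of at least 100, no filter, the union of exons as length, or introns without overlapping exons or less 10 bases on each side. The last 3 were chosen after seeing the data. Each value was judged by itself, and with exon counts per kb the SDs of the 20S and 19S genes were nearly equal. No gene past 2-fold changed direction, and the ratios of 10 genes within 2-fold changed sign under at least 1 setting.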
